A study of Ovis aries with 40 samples.

Results

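The Hedgehog signalling genes SHH, PTCH1, SMO, GLI1, GLI2, GLI3 and HHIP were followed through lung development in sheep with and without CFTR. They were chosen by gene symbol, to cover the ligand, the receptor, the signal transducer, the transcription factors and an inhibitor of the ligands, and they are 7 of 24478 genes in the count tables. All 7 passed the filter on low counts in every comparison.

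Hedgehog ligands are secreted signals that act between neighbouring tissues. In the developing lung Sonic hedgehog is made by the epithelium and received by the surrounding mesenchyme, where it supports growth of the mesenchyme, smooth muscle formation and branching of the airways. Without ligand, PTCH1 keeps SMO inactive and GLI proteins are processed to repressors at the primary cilium, and with ligand SMO is released and GLI activators switch on targets that include GLI1, PTCH1 and HHIP themselves.

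Bulk RNA was sequenced from proximal and distal lung of wild type (WT) and CFTR-/- (CF) American Romney sheep on gestation days 65, 80, 100 and 120 and at term (day 147). Each of the 20 conditions had 2 libraries, 40 in all. The CF animals were cloned by somatic cell nuclear transfer from a single gene-edited male fetal fibroblast line with CFTR targeted at its second exon, whereas WT animals were bred naturally, and the knockout and the cloning cannot be told apart. The WT animals of day 147 had been delivered by natural birth before sampling, so in WT lung the step from day 120 to term spans birth. The delivery of the CF term animals is not stated, so at term the genotypes may also differ in birth or the time after it. Proximal and distal pieces came from the same animals. In the labels 1 animal stands for both replicates of WT day 100, and another for WT day 65 replicate 2 as well as CF day 100 replicate 2, which were placed by their titles. The submitters describe the tissue as epithelial. Markers of both fibroblasts and epithelium were present: in WT proximal lung before term the summed level of 10 fibroblast markers was 8087 to 13900 CPM (counts of a gene relative to the scaled total of its library) and that of 11 epithelial markers 771 to 1144 CPM.

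Before term, depth ranged from 24670355 to 43700012 counts in 16 WT libraries and from 85773994 to 103139483 counts in 16 CF libraries, and depth and genotype cannot be told apart there. In the 8 term libraries it was 115937437 to 126749480 counts. In WT lung depth thus rose between day 120 and term too, and depth and that step cannot be told apart. Counts drawn down to the depth of the shallowest library are among the alternatives. CFTR itself had a median of 29.1 CPM in WT and 19.6 CPM in CF lung before term, over ranges that overlapped, and 11.7 and 4.38 CPM at term. Counts over the whole gene do not report on its second exon. CF proximal day 120 replicate 2 stood apart from the other libraries. Its length slope, the change of log2 CPM against the mean of the 4 libraries of its region and day for each doubling of exonic length, was -0.289. It had 18998 genes detected against 20430 in replicate 1, and mitochondrial genes took 0.942% of its counts against 1.92%. CF proximal day 100 replicate 2, CF proximal day 80 replicate 1, CF distal day 120 replicate 2 and CF distal day 65 replicate 2 followed, with length slopes of -0.125, -0.116, -0.103 and -0.095.

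In the sheep assembly Oar_v4.0, SHH lies on chromosome 4 from 116842806 to 116860359, SMO on chromosome 4 from 93158594 to 93167798 and GLI3 on chromosome 4 from 78782503 to 79093399. PTCH1 lies on chromosome 2 from 30649664 to 30710971, GLI2 on chromosome 2 from 185203631 to 185268493, GLI1 on chromosome 3 from 161689876 to 161698046 and HHIP on chromosome 17 from 13190565 to 13307281. None of the 7 shares exon bases with another annotated gene. Counts cover all annotated exons, between 3579 bases (SMO) and 9234 bases (HHIP) a gene.

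On the RPKM scale, which divides CPM by the exonic length in kilobases, HHIP, which binds and sequesters Hedgehog ligands, was the most abundant member, with a median of 43.4 RPKM over 40 libraries. SMO followed with 22.4 RPKM, PTCH1 with 13.6 RPKM, GLI1 with 6.60 RPKM, GLI3 with 4.03 RPKM and GLI2 with 2.11 RPKM. SHH was the least abundant, with a median of 1.21 RPKM and a range from 0.325 to 2.65 RPKM. Each neighbouring pair in this order overlapped over the 40 libraries. Mean RPKM of SHH ran from 0.557 to 2.33 over the 20 conditions, that of DHH, the Desert hedgehog ligand, from 0.226 to 1.55, and that of IHH, the Indian hedgehog ligand, from 0.0151 to 0.168. IHH had no count in 3 libraries.

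**Figure D1:**
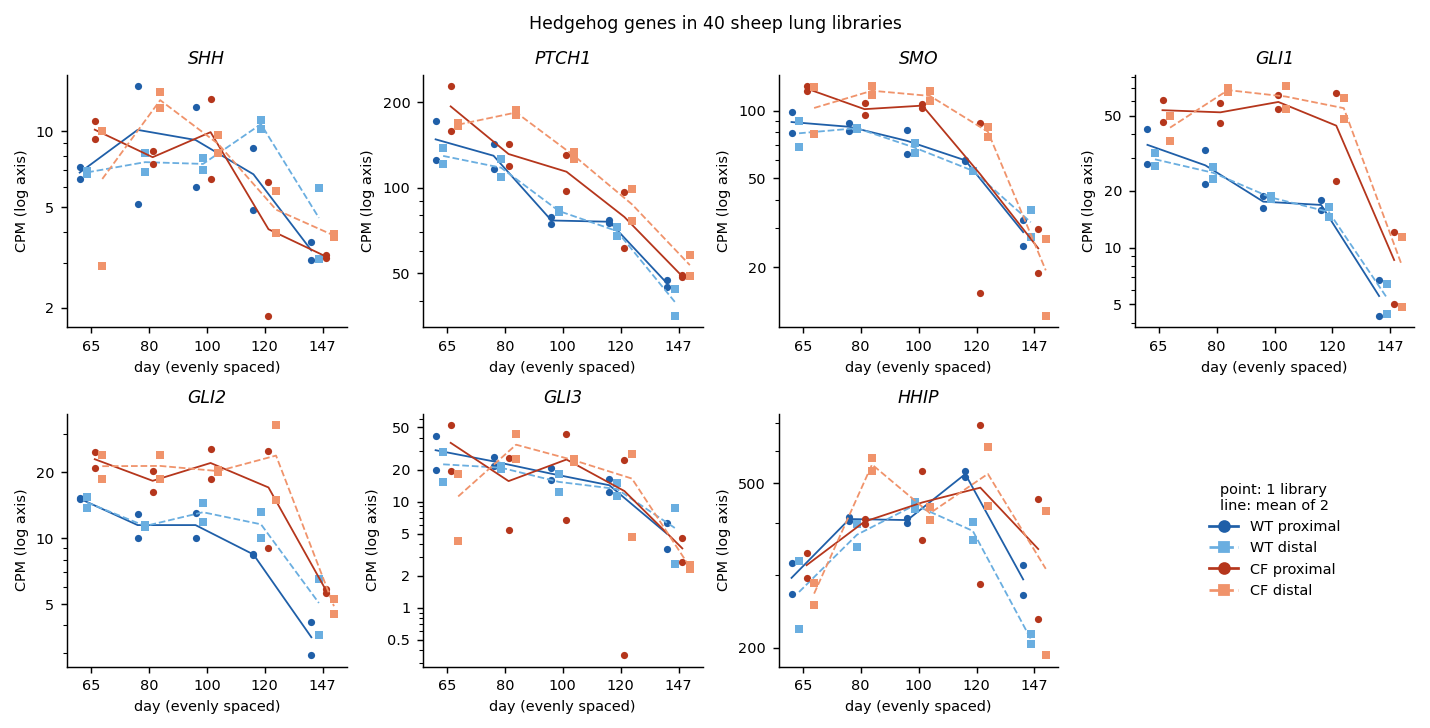
Level of each Hedgehog gene in CPM (log axis) at 65, 80, 100, 120 and 147 days in WT (blue) and CF (red) proximal (circles, solid lines) and distal lung (squares, dashed lines). Each point is 1 library and lines join the means of 2 (days evenly spaced), with distal lung in the lighter shade. Mean GLI1 and GLI2 of CF lung lie above WT lung of the same region before term.

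To find out which members changed between day 65 and term, each genotype and region was fitted as its own time course. In WT proximal lung 6 of 7 members changed over time (edgeR's quasi-likelihood F test, adjusted p of 0.05 or less), against 40.8% of 18186 genes tested, and in WT distal lung 5 of 7, against 40.4% of 18277 genes. The distal call of HHIP was lost when a trend on gene length was removed from each library (adjusted p = 0.0852), an alternative chosen after seeing the data. Over all time points SHH did not pass in either region (adjusted p = 0.19 and 0.0794, although its distal fall at term passed on its own) and GLI3 passed in proximal lung alone (adjusted p = 0.0048 and 0.069), a difference between regions that was not tested.

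More members passed between day 120 and term than in any earlier interval. From day 120 to term all 7 members had negative log2 fold changes in both regions, with medians of -1.07 in proximal and -1.21 in distal lung, where the medians of all genes were 0.06 and 0.04. In proximal lung 6 of 7 members passed the test, against 24.6% of genes, and in distal lung 6 of 7, against 25.8% of genes. In the 3 earlier intervals few genes passed in WT lung. From day 65 to 80, 80 to 100 and 100 to 120 the backgrounds were 0.011%, 1.94% and 2.67% in proximal and 0.0164%, 1% and 2.49% in distal lung, and 1 member passed, PTCH1 from day 80 to 100 in proximal lung.

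SHH, the ligand, read 8.63 and 4.89 CPM at day 120 and 3.09 and 3.65 CPM at term in WT proximal lung. In WT distal lung it read 10.2 and 11.1 CPM at day 120 and 5.98 and 3.11 CPM at term. Both term libraries of each region lay below every earlier WT library of that region, of which the lowest read 4.89 CPM in proximal and 6.79 CPM in distal lung. The log2 fold change from day 120 to term was -1.26 ± 0.31 (SE) in distal lung (adjusted p = 0.0197) and -1.01 ± 0.53 in proximal lung, which did not pass (adjusted p = 0.199). Without either day 120 library or without term replicate 2 the distal value did not pass either. Between days 65 and 120 no interval passed for SHH, and replicates differed by up to 2.94-fold (15.1 and 5.15 CPM at day 80 in proximal lung).

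PTCH1, the receptor of the ligands and itself a target of the pathway, fell in steps. In WT proximal lung it read 171 and 125 CPM at day 65, 142 and 117 CPM at day 80. It then read 74.5 and 79.0 CPM at day 100, 76.8 and 75.2 CPM at day 120, and 44.7 and 47.4 CPM at term. In WT distal lung it read 138 and 121 CPM at day 65, 126 and 109 CPM at day 80, and then 83.7 and 82.0 CPM at day 100, 68.0 and 73.0 CPM at day 120, and 44.0 and 35.5 CPM at term. All libraries from day 100 on lay below all libraries of days 65 and 80 in both regions, and the term libraries lay below all others. From day 80 to day 100 the log2 fold change was -0.77 ± 0.16 in proximal lung (adjusted p = 0.0433) and -0.51 ± 0.14 in distal lung (adjusted p = 0.154). The proximal value did not pass with the replicate number as a block (adjusted p = 0.0591) or with the day 100 libraries, which share an animal label, summed. Nor did it pass without any 1 of the 6 libraries of days 80, 100 and 120 (adjusted p up to 0.26). From day 120 to term PTCH1 changed by -0.72 ± 0.16 in proximal lung (adjusted p = 0.0101), a call lost without day 120 replicate 1, and by -0.85 ± 0.14 in distal lung (adjusted p = 0.00398).

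SMO, the transmembrane transducer that PTCH1 restrains, read 60.4 and 59.6 CPM at day 120 and 32.5 and 24.8 CPM at term in WT proximal lung, and 53.9 and 53.8 CPM against 36.1 and 27.4 CPM in WT distal lung. Its values at term lay below all 16 earlier WT libraries, which read 53.8 to 98.7 CPM with a median of 75.5 CPM. The log2 fold change was -1.07 ± 0.17 in proximal lung (adjusted p = 0.00288) and -0.79 ± 0.17 in distal lung (adjusted p = 0.0104), the latter lost without day 120 replicate 1.

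Among the transcription factors, GLI1, an activator whose own transcription is switched on by the pathway, changed most in WT lung. In WT proximal lung GLI1 read 27.9 and 42.3 CPM at day 65, 32.8 and 21.8 CPM at day 80. The later values were 16.3 and 18.8 CPM at day 100, 15.9 and 17.8 CPM at day 120, and 6.73 and 4.36 CPM at term. In WT distal lung it read 27.1 and 31.8 CPM at day 65, 26.7 and 23.2 CPM at day 80, 18.2 and 18.8 CPM at day 100, 14.5 and 16.5 CPM at day 120, and 6.46 and 4.45 CPM at term. The order of the time points was thus the same as for PTCH1, with day 100 below day 80 and term lowest in both regions. From day 120 to term GLI1 fell 3.05-fold in proximal lung (log2 fold change -1.61 ± 0.29, adjusted p = 0.0049) and 2.88-fold in distal lung (-1.53 ± 0.20, adjusted p = 0.00192). These log2 fold changes were lower than those of 95.5% and 94.7% of all genes tested.

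GLI2, the main activator of the family, read 8.37 and 8.50 CPM at day 120 and 4.14 and 2.93 CPM at term in WT proximal lung, and 13.1 and 10.04 CPM against 6.501 and 3.63 CPM in WT distal lung. It fell in both regions (log2 fold change -1.26 ± 0.26, adjusted p = 0.00771, and -1.21 ± 0.29, adjusted p = 0.0168), although the proximal call was lost without term replicate 2 and the distal call without day 120 replicate 1. GLI3, which acts chiefly as a repressor, read 16.2 and 12.4 CPM at day 120 and 6.35 and 3.58 CPM at term in WT proximal lung, and 14.98 and 11.3 CPM against 8.71 and 2.598 CPM in WT distal lung. The groups did not overlap in either region. GLI3 fell in proximal lung (-1.53 ± 0.38, adjusted p = 0.0181), a call lost without day 120 replicate 1 or term replicate 2, and did not pass in distal lung (-1.24 ± 0.51, adjusted p = 0.106).

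HHIP, the inhibitor and also a target of the pathway, had another course. In WT proximal lung HHIP read 270 and 321 CPM at day 65, 406 and 414 CPM at day 80. It read 402 and 413 CPM at day 100, 517 and 537 CPM at day 120, and 269 and 316 CPM at term. In WT distal lung it read 221 and 324 CPM at day 65, 351 and 400 CPM at day 80, 434 and 452 CPM at day 100, 365 and 402 CPM at day 120, and 216 and 204 CPM at term. Days 65 and term were the lowest time points in both regions and overlapped in proximal lung. No interval before day 120 passed the test for HHIP in either region, and from day 120 to term it fell by 0.85 ± 0.14 on the log2 scale in proximal lung (adjusted p = 0.00264) and by 0.89 ± 0.18 in distal lung (adjusted p = 0.00846). The distal call was lost without day 120 replicate 2, and also with the length trend removed (adjusted p = 0.102).

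Cell type markers moved in the same interval. In WT proximal lung the summed level of the 10 fibroblast markers was 8087 to 13900 CPM before term and 3781 to 6017 CPM at term, with 7 of 10 lower at term than at day 120 and none higher. That of the 11 epithelial markers was 771 to 1144 CPM before term and 1891 to 1895 CPM at term, with 8 of 11 higher. In WT distal lung the fibroblast sum went from 9083 to 11390 CPM to 5272 to 7067 CPM and the epithelial sum from 830 to 1150 CPM to 2096 to 2161 CPM. The alveolar and leukocyte lists moved further in WT proximal lung. The sum of the alveolar type 2 markers was at most 6965 CPM before term and 22610 to 28550 CPM at term, that of the alveolar type 1 markers at most 2304 CPM and then 4742 to 5617 CPM, and that of the leukocyte markers at most 220 CPM and then 1041 to 1431 CPM. No fibroblast or epithelial marker was at 0 in any library. The part of these shifts in the fall of the Hedgehog genes was not tested, and in bulk RNA fewer cells of a type and less RNA per cell cannot be told apart.

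**Figure D2:**
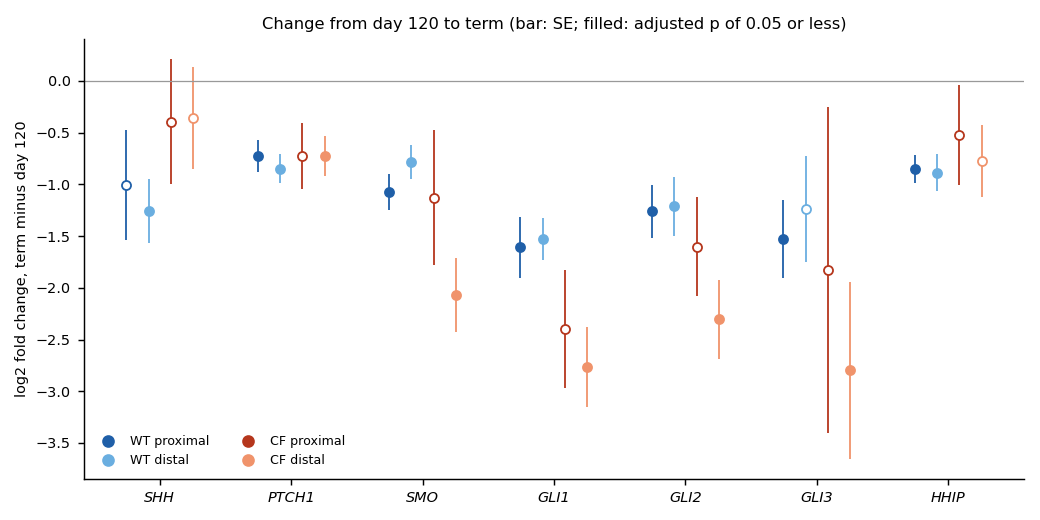
Log2 fold change from day 120 to term (vertical axis, term minus day 120) for each Hedgehog gene in WT proximal, WT distal, CF proximal and CF distal lung, with SE as bars and filled points for an adjusted p of 0.05 or less. All 28 values lie below 0, and GLI1 has the lowest or next to lowest value in each of the 4 time courses.

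In CF distal lung 4 of 7 members changed over time (PTCH1, SMO, GLI1 and GLI2), against 33.9% of 19508 genes tested, and GLI2 did not pass without either term library (adjusted p up to 0.0947). From day 120 to term 5 of 7 fell, where 11.5% of genes fell and 23% were called in either direction, and all 7 log2 fold changes were negative, with a median of -2.07 where that of all genes was -0.06. GLI1 read 61.9 and 47.9 CPM at day 120 and 11.4 and 4.86 CPM at term, a fall of 6.82-fold (log2 fold change -2.77 ± 0.39, adjusted p = 0.00419). SMO read 84.7 and 76.5 CPM at day 120 and 26.6 and 12.1 CPM at term (-2.07 ± 0.36, adjusted p = 0.00783). GLI2 read 32.8 and 14.9 CPM against 5.27 and 4.53 CPM (-2.30 ± 0.38, adjusted p = 0.00703). These 3 calls held without any 1 library of the time course.

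PTCH1 read 98.8 and 76.2 CPM at day 120 and 49.1 and 57.9 CPM at term in CF distal lung (log2 fold change -0.72 ± 0.20, adjusted p = 0.0301), and GLI3 28.3 and 4.62 CPM against 2.34 and 2.51 CPM (-2.80 ± 0.85, adjusted p = 0.0439). The groups did not overlap for either gene, but GLI3 was low in the second of the day 120 libraries. Both calls were lost when the trend on gene length was removed (adjusted p = 0.205 and 0.0563). They were also lost without any 1 of 7 libraries, namely those of days 80 and 100, day 120 replicate 1 and both at term (adjusted p up to 0.123 for PTCH1 and 0.408 for GLI3). SHH read 5.83 and 3.97 CPM at day 120 and 3.82 and 3.91 CPM at term, and HHIP 613 and 442 CPM against 429 and 192 CPM. Neither passed (adjusted p = 0.616 and 0.13). Before day 120 no member passed in CF distal lung (edgeR, backgrounds 0%, 0% and 0.928% in the 3 intervals), with 3 values at an unadjusted p under 0.05, against 17.4%, 4.04% and 11.8% of genes, and none called by DESeq2, against 1.61%, 0.692% and 5.48%. In the last interval 6 of 8 smooth muscle markers and 10 of 12 cell cycle markers fell in CF distal lung, 7 of 11 epithelial markers rose, and of the 10 fibroblast markers 2 rose and 2 fell. The leukocyte sum was 97.1 to 260 CPM before term and 744 to 935 CPM at term, and that of alveolar type 2 markers at most 9595 CPM before term. The CF distal term libraries, in which replicate 1 had more GLI1, SMO and HHIP than replicate 2, read 35400 and 8724 CPM for alveolar type 2, 23090 and 3452 CPM for lung tip progenitor and 8835 and 4001 CPM for fibroblast markers. The lung tip progenitor list shares SFTPC with the alveolar type 2 list, so their sums are not independent. In WT proximal lung the lung tip progenitor sum was 837 and 1052 CPM at day 65 and 10650 and 13590 CPM at term. The part of the markers in the fall of the members and in the gap between the CF distal term libraries was not tested.

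In CF proximal lung no member changed over time by edgeR (background 5.36% of 19690 genes), although 4 of 7 had an unadjusted p under 0.05, against 20.2% of genes, and DESeq2 called 3, against 20.6%. No interval passed either by edgeR, with backgrounds of 0%, 0%, 0.0203% and, from day 120 to term, 0.356%. Of the 28 interval values 2 had an unadjusted p under 0.05, both from day 120 to term, where 15.1% of genes had one. In that interval DESeq2 called 2, GLI1 (adjusted p = 0.00281) and GLI2 (0.0391), against 7.09% of genes. The 7 log2 fold changes at term were all negative, with a median of -1.13. The day 120 libraries differed in every member. Replicates 1 and 2 read 6.33 and 1.86 CPM for SHH, 96.4 and 61.5 CPM for PTCH1, and 88.5 and 15.3 CPM for SMO. They read 66.1 and 22.7 CPM for GLI1, 25.1 and 9.01 CPM for GLI2, 24.8 and 0.360 CPM for GLI3, and 692 and 285 CPM for HHIP. Replicate 2, the library that stood apart, was lower for all 7. Its marker sums differed from those of replicate 1 too, with lung tip progenitor markers at 16350 against 3035 CPM, alveolar type 2 markers at 21290 against 8664 CPM, cartilage markers at 141 against 40.04 CPM and fibroblast markers at 9138 against 13570 CPM. The lung tip progenitor and alveolar type 2 lists share SFTPC, so their sums are not independent. The part of these markers in the low values of the members was not tested.

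Without CF proximal day 120 replicate 2, 4 members changed over time in CF proximal lung, against 12.5% of genes, namely SMO (adjusted p = 0.00748), GLI2 (0.0172), GLI1 (0.0199) and PTCH1 (0.0204). Of these, GLI1 (log2 fold change -2.97, adjusted p = 0.0328), GLI2 (-2.16, adjusted p = 0.0323) and SMO (-1.90, adjusted p = 0.0341) also fell from day 120 to term, against 1.03% of genes called. Without replicate 1 in its place, 5 members changed over time, against 20.5% of genes, and without the 5 libraries with low length slopes 5 changed, against 13.1% of genes.

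GLI3 differed most between replicates in CF lung. Its larger replicate was 3.5 times the smaller in the median of the 10 CF conditions and 68.9 times at day 120 in proximal lung, where replicate 2 held 31 GLI3 counts. In the 10 WT conditions the median was 1.4 times and the highest 3.35 times. In the 5 libraries of low length slope GLI3 read 0.360, 6.73, 5.36, 4.62 and 4.24 CPM, in the order in which these were named above, against 24.8, 43.1, 25.8, 28.3 and 18.1 CPM in the other replicates of the same conditions. All 5 lay below the 16 WT libraries before term, which ran from 11.3 to 41.3 CPM with a median of 18.9 CPM. Both WT distal day 80 libraries had slopes of -0.092, close to the last of the 5, and read 20.2 and 21.5 CPM for GLI3. GLI3 has the longest locus of the 7 but not the longest exons, and the part of the length slope in its level was not tested.

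**Figure D3:**
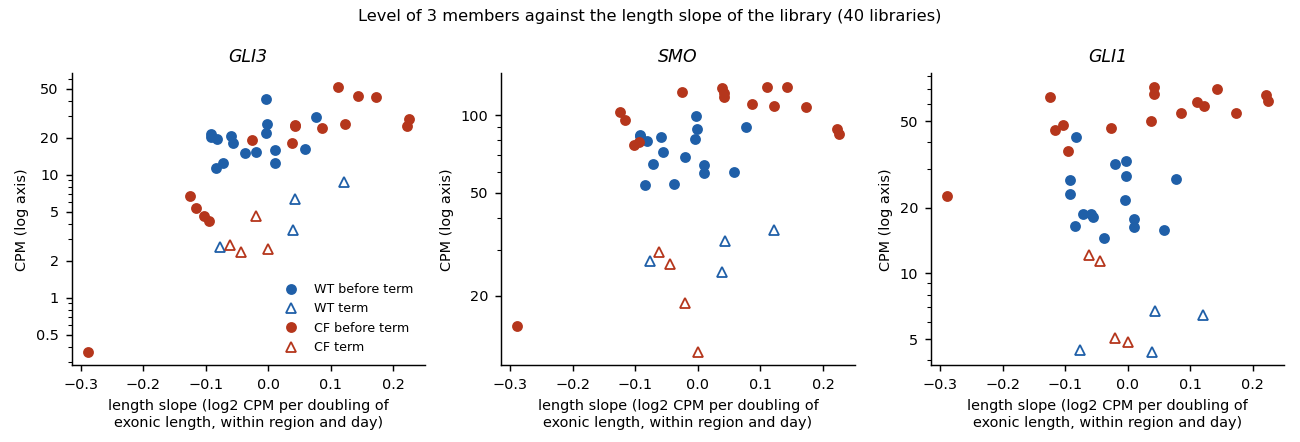
Level in CPM (log axis) of GLI3, SMO and GLI1 against the length slope of the library, the change in log2 CPM per doubling of exonic length relative to the libraries of the same region and day, in 40 libraries from WT (blue) and CF (red) lung before term (filled circles) and at term (open triangles). The 5 CF libraries before term with slopes from -0.289 to -0.095 have the lowest GLI3 before term, and the library at -0.289 is also lowest before term for SMO.

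To see where CF lung differed from WT lung, the genotypes were compared within each region at each time point and as an average over the 5 time points. On average 3 of 7 members were higher in CF distal lung (GLI1, GLI2 and PTCH1), against 18% of 20084 genes higher and 31.2% called in either direction, and 2 of 7 were higher in CF proximal lung (GLI1 and GLI2), against 13.9% of 20344 genes higher and 21.8% called in either direction. No member was lower in CF lung. These calls held without any 1 library, with counts drawn down to equal depth, with DESeq2, with the trend on gene length removed and without the 5 libraries of low length slope.

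Of the 7 members GLI1 had the largest average difference between the genotypes in both regions. In distal lung the CF libraries read 50.0 and 36.6 CPM at day 65, 70.2 and 66.7 CPM at day 80. They read 54.6 and 72.0 CPM at day 100, 61.9 and 47.9 CPM at day 120, and 11.4 and 4.86 CPM at term, beside the WT values above. In proximal lung they read 46.2 and 60.9 CPM at day 65, 45.7 and 58.7 CPM at day 80, 54.4 and 64.1 CPM at day 100, 66.1 and 22.7 CPM at day 120, and 12.2 and 5.04 CPM at term. Both CF libraries were above both WT libraries at all 4 time points before term in both regions. How often libraries were apart in this way was not counted over all genes, here or for the members below. At term the genotypes overlapped.

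Averaged over time points GLI1 was 2.36-fold higher in CF distal lung (47.6 against 18.8 CPM, log2 fold change 1.24 ± 0.14, adjusted p = 1.83e-05) and 2.09-fold higher in CF proximal lung (43.6 against 20.5 CPM, 1.07 ± 0.21, adjusted p = 0.00319). These differences were higher than those of 93.8% and 89.6% of genes. Both held in every alternative run at the same threshold.

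At single time points 5 of 35 member values passed in distal lung, all higher in CF, against 5.23%, 5.92%, 5.3%, 4.38% and 15.2% of genes at days 65, 80, 100, 120 and 147. In proximal lung 0 of 35 passed by edgeR, against 0.167%, 0.0885%, 0.383%, 1.35% and 6.09% of genes, with 5 at an unadjusted p under 0.05 and 2 called by DESeq2. On the same days 12.4%, 10.6%, 13%, 17.1% and 19.9% of genes had an unadjusted p under 0.05 in proximal lung, and DESeq2 called 2.89% to 12.8%.

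By time point, the log2 fold change of GLI1 in distal lung was 1.45 ± 0.32 at day 80 (adjusted p = 0.0171), 1.76 ± 0.32 at day 100 (adjusted p = 0.00689) and 1.84 ± 0.32 at day 120 (adjusted p = 0.00612). The values at day 65 and at term, 0.55 and 0.60, did not pass. The day 80 call was lost without any 1 of its 4 libraries (adjusted p up to 0.181) and the day 120 call without either WT library (up to 0.0964). The day 100 call was lost without either WT library, without CF replicate 2 and with the WT libraries summed (up to 0.107). In proximal lung GLI1 differed by 1.75 ± 0.48 at day 100 (adjusted p = 0.129) and by 1.40 ± 0.48 at day 120 (adjusted p = 0.15). Both passed without CF proximal day 120 replicate 2 (adjusted p = 0.0296 and 0.0447) and by DESeq2 (adjusted p = 0.015 and 0.0491). Without CF proximal day 120 replicate 1 the day 100 value passed (adjusted p = 0.0301) and the day 120 value fell to 0.43 (adjusted p = 0.479), and the day 100 value had an adjusted p of 0.559 with the WT day 100 libraries summed.

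GLI2 followed the same pattern at a smaller size. In CF proximal lung it read 21.0 and 24.9 CPM at day 65, 16.3 and 20.3 CPM at day 80, 25.4 and 18.7 CPM at day 100, 25.1 and 9.01 CPM at day 120, and 5.85 and 5.64 CPM at term, where the WT libraries of these days read at most 15.2, 13.0, 13.0, 8.50 and 4.14 CPM. Both CF libraries were above both WT libraries at 5 of 5 time points in proximal and 4 of 5 in distal lung, again not counted over all genes. On average GLI2 was 1.72-fold higher in CF proximal (log2 fold change 0.78 ± 0.17, adjusted p = 0.00589) and 1.54-fold higher in CF distal lung (0.62 ± 0.15, adjusted p = 0.00591). No single time point passed for GLI2, with adjusted p of 0.0906 at day 120 in distal lung the smallest in that region.

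PTCH1 was higher in CF distal lung at every time point without overlap. The CF distal libraries read 169 and 165 CPM at day 65, 180 and 188 CPM at day 80. Later they read 126 and 133 CPM at day 100, 98.8 and 76.2 CPM at day 120, and 49.1 and 57.9 CPM at term. The average difference in distal lung was 1.4-fold (124 against 88.0 CPM, log2 fold change 0.48 ± 0.07, adjusted p = 0.000161), and values passed at day 80 (0.64 ± 0.16, adjusted p = 0.0308) and day 100 (0.63 ± 0.16, adjusted p = 0.0347). The day 80 value was lost with the length trend removed (adjusted p = 0.0626), and both were lost when the WT day 100 libraries were summed and without any 1 of 8 libraries, which include all of days 80 and 100 from CF and the WT libraries of the day itself (adjusted p up to 0.268). In proximal lung the CF libraries read 158 and 228 CPM at day 65 and 96.4 and 61.5 CPM at day 120, overlapping WT at days 65, 80 and 120, and the average difference of 0.22 ± 0.11 did not pass (adjusted p = 0.18). It passed without the 5 libraries of low length slope (0.34, adjusted p = 0.0187), and with the length trend removed (adjusted p = 0.0448).

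SMO read 128 and 117 CPM at day 80, 111 and 122 CPM at day 100 and 84.7 and 76.5 CPM at day 120 in CF distal lung, above both WT libraries each time, and 26.6 and 12.1 CPM at term, below both. Its average difference of 0.32 ± 0.13 in distal and 0.17 ± 0.23 in proximal lung did not pass (adjusted p = 0.07 and 0.659). Without the 5 libraries of low length slope SMO passed in both regions (0.38 and 0.34), and without CF proximal day 120 replicate 2 it passed in proximal lung (0.31). More members passed in distal lung without CF distal term replicate 2. These fits leave 1 library in some conditions.

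With all libraries SHH, GLI3 and HHIP did not pass as an average in either region. Leaving out CF distal term replicate 2 added calls beyond SMO in distal lung, so a non-call among these 3 depended on that library. For SHH the averages were 7.49 CPM in CF and 7.42 CPM in WT distal lung and 7.05 and 7.28 CPM in proximal lung, differences of -0.07 ± 0.19 and -0.10 ± 0.27 on the log2 scale. In distal lung the days went both ways without overlap, with SHH at 14.3 and 12.3 CPM in CF against 8.20 and 6.91 CPM in WT at day 80 and at 5.83 and 3.97 CPM against 10.2 and 11.1 CPM at day 120. Neither difference passed (0.81 ± 0.43, adjusted p = 0.281, and -1.11 ± 0.43, adjusted p = 0.165). For HHIP they were 417 and 337 CPM in distal lung (0.31 ± 0.13, adjusted p = 0.0895) and 401 and 386 CPM in proximal lung (0.07 ± 0.16, adjusted p = 0.82). HHIP read 577 and 535 CPM at day 80 and 613 and 442 CPM at day 120 in CF distal lung, above both WT libraries, and overlapped WT there on the other days. For GLI3 the standard errors were largest, with differences of -0.09 ± 0.33 in distal and -0.12 ± 0.54 in proximal lung. That these 3 genes did not pass does not make their levels equal between genotypes. For the average in distal lung 58% of simulated 2-fold changes were recovered.

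Whether the time course of a member differed between genotypes was tested by the interaction. No member passed in distal lung (edgeR, background 4.64%), with 2 at an unadjusted p under 0.05, against 21.5% of genes, SMO (adjusted p = 0.151) and GLI1 (adjusted p = 0.154). None passed in proximal lung (edgeR, background 0.462%), with 0 at an unadjusted p under 0.05, against 9.86% of genes, and 0 by DESeq2. DESeq2 called both in distal lung (adjusted p = 0.0442 for SMO and 0.0333 for GLI1), against 17.3% of genes, and without CF distal term replicate 1 edgeR did too (adjusted p = 0.00688 and 0.0066), against 11%. SHH passed in distal lung without CF distal day 65 replicate 1, and SMO in proximal lung without CF proximal day 120 replicate 1. These fits leave 1 library in a condition, and their shares over all genes are not given here.

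**Figure D4:**
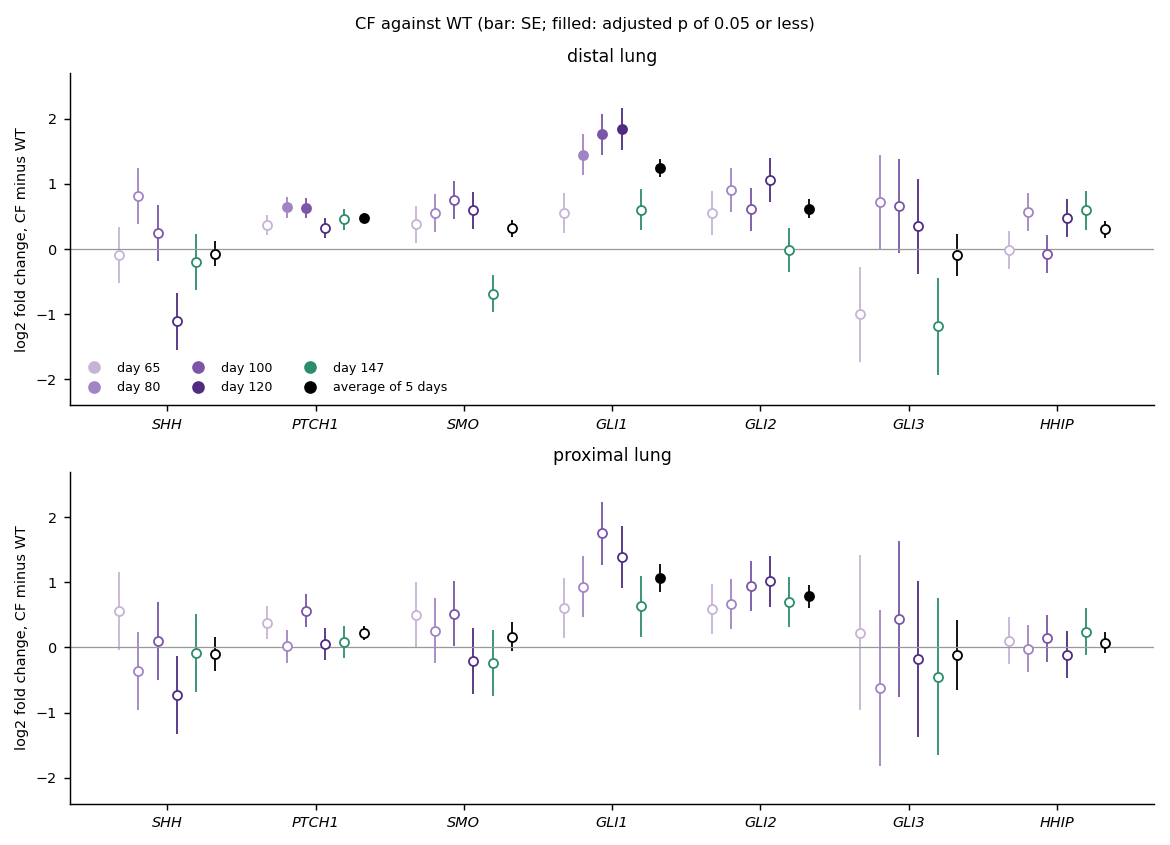
Log2 fold change of CF minus WT (vertical axis) for each Hedgehog gene in distal (top) and proximal lung (bottom) at each day and as the average of 5 days (black), with SE as bars and filled points for an adjusted p of 0.05 or less. The average of GLI1 is the highest in both regions, at 1.24 and 1.07, and GLI3 has the widest bars.

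Smooth muscle markers moved with the genotype too. The summed level of 8 smooth muscle markers was 310 to 800 CPM in WT and 799 to 1563 CPM in CF proximal lung before term, and 317 to 838 CPM and 678 to 1619 CPM in distal lung, and 6 of 8 were higher in CF on average in each region. At term the order of the sums was the other way, with 642 to 969 CPM in WT and 299 to 589 CPM in CF proximal lung. Of the 10 fibroblast markers 4 were higher in CF distal and 2 in CF proximal lung and none was lower, of the 11 epithelial markers 2 and 1 were lower and none was higher, and of the 12 cell cycle markers 7 and 6 were lower. No smooth muscle marker was at 0 in any library, and the part of cell composition in the difference of GLI1, GLI2 and PTCH1 was not tested.

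No member passed the test between proximal and distal lung. In WT lung 0 of 7 passed on average (edgeR, background 0.016% of 18715 genes) and in CF lung 0 of 7 (background 0.00497% of 20126 genes). At an unadjusted p under 0.05 there were 1 and 0, against 3.18% and 3.13% of genes. DESeq2 called 0 in both, against 0.0481% and 0.154% of genes. At single time points 0 of 35 values passed in each genotype by edgeR, with 2 in WT and 0 in CF lung at an unadjusted p under 0.05, against 0.94% to 6.6% and 0.701% to 3.56% of genes, and 0 by DESeq2. There the background was 0% at each day in CF lung, and in WT lung 0.0107% at day 120, 0.00534% at day 147 and 0% at the others. The member with an unadjusted p under 0.05 was HHIP in WT lung, 386 CPM in proximal and 337 CPM in distal lung on average (log2 fold change 0.21 ± 0.07, adjusted p = 1, or 0.289 with the animal as a block). The 10 WT pairs of libraries stand for 9 labelled animals, since the day 100 libraries carry 1 label and were paired there by replicate number. Within pairs proximal HHIP was above distal in 7 of 10 WT pairs of libraries and in 6 of 10 CF pairs. The mean difference within WT pairs was 0.22 ± 0.26 (SD over 10 pairs) for HHIP and -0.21 ± 0.32 (SD) for GLI2. For PTCH1 proximal lung was higher in 8 of 10 WT pairs (0.11 ± 0.17, SD) and distal lung in 8 of 10 CF pairs (-0.16 ± 0.30, SD), a difference that was not tested. Leaving out CF proximal day 120 replicate 1 left the library that stood apart alone for its condition. Member calls then appeared between regions of CF lung at single time points, in a fit whose share over all genes is not given here.

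Other genes of the pathway were read from lists of ligand release, receptors and co-receptors, cilium and GLI processing, and Hedgehog-responsive mesenchyme, of which EVC and FOXF2 were not used here. From day 120 to term 5 of 7 receptors and co-receptors fell in WT proximal lung, 3 fell and 1 rose in WT distal lung, 1 fell in CF proximal and 2 fell in CF distal lung. Over all genes 11.1%, 12.3%, 0.279% and 11.5% fell and 13.5%, 13.5%, 0.0762% and 11.5% rose in these time courses. LRP2, an endocytic receptor for Sonic hedgehog, rose in WT distal lung at a low level (0.546 to 1.63 CPM, 1.59 ± 0.50, adjusted p = 0.0447). Of IHH and DHH, the other ligands, 1 rose in WT distal lung and none changed in the other time courses.

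Of the 15 genes of the cilium and GLI processing, 6 fell and 2 rose from day 120 to term in WT proximal lung, 8 fell in WT distal, none changed in CF proximal and 5 fell in CF distal lung. The 2 of 15 that rose in WT proximal lung, a share like the 13.5% of all genes, were ARRB2 (0.67 ± 0.21, adjusted p = 0.0474), a beta-arrestin, and GSK3B (0.50 ± 0.12, adjusted p = 0.0133), a kinase that marks GLI proteins for processing. SUFU, which holds GLI proteins in the cytoplasm, had means of 61.6 CPM at day 120 and 31.2 CPM at term in WT proximal lung, and 66.6 and 43.8 CPM in CF distal lung. Of the 5 genes of ligand release 1 fell in each WT region, none in CF proximal and 2 in CF distal lung, beside the same shares of all genes as above. Among the latter was SCUBE3 (-5.32 ± 1.24, adjusted p = 0.0193), which read 13.6 and 1.73 CPM at day 120 and a mean of 0.198 CPM at term.

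Of the 14 genes of Hedgehog-responsive mesenchyme, 11 fell from day 120 to term in WT proximal lung, 8 in WT distal, 1 in CF proximal and 5 in CF distal lung, and none rose, where 11.1%, 12.3%, 0.279% and 11.5% of all genes fell. FGF10, a growth signal from the mesenchyme to the branching epithelium, fell from 107 to 12.5 CPM in WT proximal (log2 fold change -3.10 ± 0.24, adjusted p = 0.00012) and from 98.1 to 10.9 CPM in WT distal lung (-3.19 ± 0.19, adjusted p = 7.21e-05). FOXL1, a mesenchymal transcription factor, fell by 2.598 ± 0.51 and by 2.85 ± 0.34 on the log2 scale (adjusted p = 0.00654 and 0.00128). In CF proximal lung FGF10 read 50.0 CPM in replicate 1 and 3.44 CPM in replicate 2 at day 120, the latter in the library that stood apart, and a mean of 43.9 CPM at term. In CF distal lung its means were 43.4 and 33.3 CPM, and at term it was higher in CF than in WT distal lung (1.64 ± 0.35, adjusted p = 0.00704, background 15.2%). MYOCD, the myocardin coactivator of smooth muscle genes and also 1 of the smooth muscle markers, fell in CF proximal (-2.59 ± 0.38, adjusted p = 0.0419) and CF distal lung (-3.21 ± 0.40, adjusted p = 0.00252), to 3.19 and 2.41 CPM.

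Earlier in WT gestation SCUBE1, which helps release the lipid-modified ligand, rose from day 80 to day 100 in both regions, from 5.93 to 39.5 CPM in proximal (2.72 ± 0.42, adjusted p = 0.015) and from 5.26 to 33.7 CPM in distal lung (2.67 ± 0.35, adjusted p = 0.011). MYOCD rose in the same interval in proximal lung (1.77 ± 0.34, adjusted p = 0.0349). From day 100 to day 120 DISP1, a transporter needed to release the ligand, rose in WT proximal lung (1.25 ± 0.25, adjusted p = 0.0333). BMP4 fell in WT distal lung in that interval (-0.85 ± 0.12, adjusted p = 0.00975). All these steps use WT day 100, whose libraries carry 1 animal label. The fit with these libraries summed was read for the members alone, and over all genes it made fewer calls.

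On average over time points, 7 of 14 Hedgehog-responsive mesenchyme genes were higher in CF distal and 5 in CF proximal lung, and none was lower. Over all genes 18% were higher and 13.2% lower in distal and 13.9% higher and 7.91% lower in proximal lung. Of the receptors and co-receptors 3 were higher and 1 lower in distal and 2 were higher in proximal lung. Of the 15 cilium and GLI processing genes 7 were higher and 1 lower in distal and 1 was higher and 1 lower in proximal lung. Of the 5 genes of ligand release 1 was higher and 1 lower in distal and 1 was higher in proximal lung, and of the other ligands IHH, named here after its values were seen, was lower in distal lung (0.139 against 0.313 CPM, -1.36 ± 0.47, adjusted p = 0.0398). SCUBE1 was higher in CF by 1.42 ± 0.13 in distal (adjusted p = 3.5e-06) and by 1.55 ± 0.17 in proximal lung (adjusted p = 7.48e-05), at 42.7 against 19.9 CPM and 43.2 against 17.8 CPM. MYOCD was higher by 1.18 ± 0.20 and 1.04 ± 0.15 (adjusted p = 0.000431 and 0.000549), and BOC, a co-receptor of the ligands, by 0.86 ± 0.11 and 0.90 ± 0.13 (adjusted p = 3.48e-05 and 0.000455). SPOP, an adaptor in GLI degradation, was lower by -0.24 ± 0.06 in distal and -0.34 ± 0.09 in proximal lung (adjusted p = 0.00914 and 0.0145). In distal lung HHAT, the acyltransferase that adds palmitate to the ligand, was lower in CF by -0.30 ± 0.09 on average (17.9 against 21.6 CPM, adjusted p = 0.0164) and by -0.74 ± 0.19 at term (adjusted p = 0.0205). LRP2 was lower there by -0.79 ± 0.24 on average (adjusted p = 0.0226) and, at 0.131 against 1.63 CPM, by -3.60 ± 0.60 at term (adjusted p = 0.00156). At single time points in distal lung KIF7, a ciliary regulator of GLI proteins, was higher in CF at day 80 (51.3 against 21.8 CPM, 1.24 ± 0.21, adjusted p = 0.00476) and day 100 (47.7 against 23.0 CPM, 1.03 ± 0.21, adjusted p = 0.0134).

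**Figure D5:**
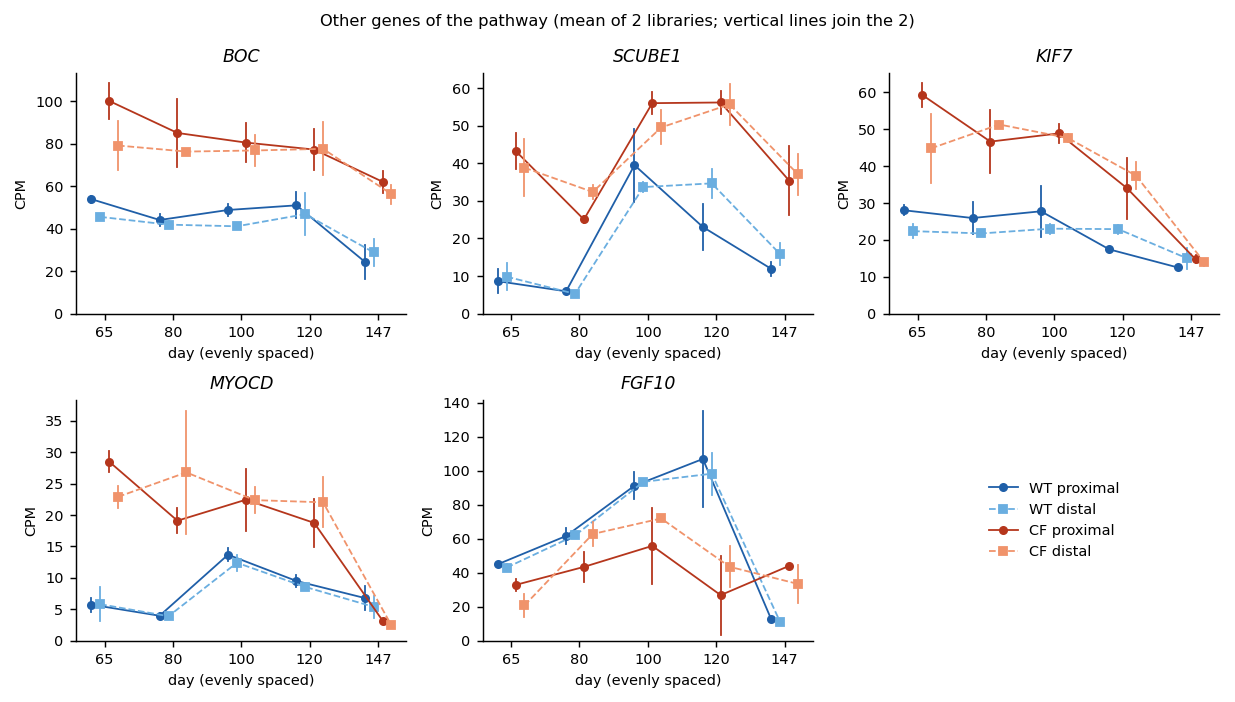
Mean CPM of BOC, SCUBE1, KIF7, MYOCD and FGF10 at each day in WT (blue) and CF (red) proximal (circles, solid lines) and distal lung (squares, dashed lines), with vertical lines that join the 2 libraries of a condition. Mean SCUBE1 rises in WT lung between days 80 and 100, mean BOC and KIF7 lie higher in CF lung before term, and mean FGF10 is lowest in WT lung at term.

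Over the 40 libraries, which share time, genotype and depth, GLI1 and GLI2 were the most alike of the members (Pearson's r of log2 CPM 0.941), followed by SMO with GLI2 (0.857), SMO with GLI1 (0.851) and PTCH1 with SMO (0.848). HHIP was least like the rest, with r from 0.246 with PTCH1 to 0.529 with GLI1, and SHH was most like GLI3 (0.816). The 5 libraries of low length slope, in which GLI3 was low, are among the 40, and r was not computed without them. Among 11820 genes the most like GLI1 were PLEKHG2 (0.97), SFPQ (0.968) and GTF3C2 (0.959), and the most like GLI2 were DCHS1 (0.966), PLEKHG2 (0.946) and POGZ (0.944). For PTCH1 they were IGF2BP1 (0.952), EPM2AIP1 (0.951) and SH3PXD2B (0.947), and for SMO COL27A1 (0.966), ADNP (0.958) and ADAMTS4 (0.958). For GLI3 they included ABL1 (0.968) and PEG10 (0.963), for SHH they were SBK1 (0.889), MVB12B (0.867) and MLLT1 (0.858), and for HHIP MID2 (0.867), FAM198B (0.817) and SLC9B2 (0.807).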

How the data were processed

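Bulk lung RNA was analysed in 40 libraries from 20 conditions of genotype, region and day. The deposited values are raw counts, 1 column for each library, made by the authors from STAR alignments of paired 100 bp reads (assembly Oar_v4.0) with featureCounts 1.6.3, and neither normalized nor pooled. Sources differ on the version of STAR, and do not give strandedness, how mates were counted or which annotation release was used. Between 69.2% and 85.8% of counts from 1 to 20 were even numbers, as counting each mate of a pair would give. A further table with 20 CF columns repeats the CF tables and was not used.

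Tools were edgeR 4.0.16 with limma 3.58.1 under R 4.3.3, and DESeq2 1.42.0 for the alternative. The filter on low counts was filterByExpr (count minimum 10, total minimum 15) and scaling was by TMM. Each time course (10 libraries), each region for CF against WT (20 libraries) and each genotype for proximal against distal lung (20 libraries) had its own quasi-likelihood fit in edgeR, in which each condition had a mean and there was no covariate, and p-values were adjusted over all genes tested (Benjamini-Hochberg). A call was an adjusted p of 0.05 or less, and 46 comparisons were made. Backgrounds are the percent of all genes tested that were called. Errors of log2 fold changes are standard errors. CPM used TMM factors over the 40 libraries, and likeness log2 CPM with a prior count of 2. On simulated counts with known changes, 41% of 2-fold and 67% of 4-fold changes were recovered from day 120 to term in WT proximal lung (17973 genes), and 58% and 93% for the average of genotypes in distal lung (20007 genes). Nothing says that libraries of a condition come from separate litters, so p-values measure the spread between these libraries.

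The members and gene lists were chosen with earlier results of these data known. All members were named, and of the list genes in each comparison up to 3 in each direction with the largest change among those called whose log2 CPM averaged at least 0. Other genes are given as levels. Some genes that these rules name are not reported here. Proximal and distal libraries were paired by animal label, and libraries of the same animal deviated together in 7 of 10 pairs (median correlation 0.512), so a fit with the animal as a block is an alternative. Alternatives were RLE, DESeq2, the bias-adjusted quasi-likelihood, no filter, thinning to 24670355 counts, a replicate block, the WT day 100 libraries summed, the limits of the study and each library left out. Removal of a lowess trend on gene length (span 0.3) and leaving out the 5 CF libraries of low length slope were chosen after seeing the data. Day 50 and RT-qPCR were not analysed here.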

Additional observations from a re-analysis of the deposited data

How the results depend on the processing

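Of 43 called values of the members none changed direction, and values that passed in neither fit were not counted as changed when their sign moved. RLE size factors changed no call. Thinned counts, the bias-adjusted test and no filter lost no call and added 2, 2 and 3. DESeq2 lost none and added 18. Among its counts were 7 members changed over time in CF distal lung, against 52.1% of genes, and 3 in CF proximal lung, against 20.6%. It made 2 calls between consecutive time points in CF proximal lung, against up to 7.09% of genes in an interval. At single time points in proximal lung it made 2, against 2.89% to 12.8%, and it called 2 interactions in distal lung, against 17.3%. In CF proximal lung the bias-adjusted test, no filter and the length trend removed gave 1 member changed over time each, against 7.7%, 5.09% and 9.19% of genes. With the length trend removed 3 of 5 calls between consecutive time points were left in CF distal lung. The limits of the study left 2 members changed over time in each WT region and 0 in CF distal lung. Of all genes 10.6% in WT proximal, 7.48% in WT distal and 3.59% in CF distal lung passed these limits. They left 0 calls between consecutive time points and 0 at single time points. Averages numbered 1 member in distal and 0 in proximal lung, against 5.94% and 2.61% of genes. With the WT day 100 libraries summed, 2 of 5 calls at single time points were left in distal lung. The fit without the 5 CF libraries of low length slope was chosen like the length trend after seeing the data, and leaves 1 library in some conditions. More members then passed over time in CF proximal lung and between genotypes in proximal lung. More of all genes passed in these fits too.

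Replicate numbers of CF and WT or of different days mark no shared animal in the labels apart from the label that WT day 65 and CF day 100 replicate 2 share, and same-numbered libraries had median correlations of 0.083 and 0.03. With the replicate number as a block, 7 members changed over time in CF distal lung, against 38.4% of genes. In distal lung 9 calls were made at single time points, against 6.95% to 19.4% of genes, and 1 interaction (SMO, adjusted p = 0.0498), against 9.15%. In all 1 call was lost and 11 were added. With the animal as a block 0 members differed between regions.

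Leaving out 1 library at a time, members changed over time numbered 6 in WT proximal (6 to 6), 5 to 7 in WT distal, 0 to 5 in CF proximal and 4 to 6 in CF distal lung. Calls between consecutive time points numbered 4 to 7, 3 to 8, 0 to 3 and 3 to 5 in the same order. Averages of CF against WT numbered 3 to 5 in distal and 2 to 3 in proximal lung, single time points 2 to 8 and 0 to 4, and interactions 0 to 2 and 0 to 1. Between regions averages stayed at 0, and single time points numbered 0 in WT and 0 to 3 in CF lung. A lone library of a condition was taken to vary like the other conditions. With 2 libraries a condition, 16% of simulated 2-fold and 60% of 4-fold changes were recovered between genotypes at day 100 in distal lung.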
